A study of Mus musculus with 12 samples.

Results

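Genes for neuronal ion channels and ionotropic receptors were followed in mouse embryonic stem cells that lacked a subunit of the HUSH complex. The members were all genes whose symbol carries the family names of potassium channels (Kcn), voltage-gated sodium channels (Scn), voltage-gated calcium channels (Cacn), ionotropic glutamate receptors (Gria, Grik, Grid and Grin) or GABA-A receptors (Gabr). By this rule 170 of 57180 listed genes were members, and 108 of them passed the filter on low counts. The rule used names and no measured value.

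C57BL/6 embryonic stem cells of 4 genotypes were sequenced as total RNA in 12 libraries. The groups were Mphosph8-null cells (MP8), Tasor-null cells (Tas), Pphln1-null cells (Pph) and wild-type cells (WT), with 3 libraries each. The 3 lost genes encode MPP8, TASOR and periphilin, the core of HUSH, which is known to hold retroelements and some genes silent through trimethylation of histone H3 on lysine 9. The labels give neither the way the alleles were made nor whether the libraries of a group are separate clones or cultures, so a p-value measures only the spread between these libraries. All 3 comparisons with WT used the same WT libraries.

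Voltage-gated channels open when the membrane depolarises: sodium channels start the action potential, potassium channels end it, and calcium channels couple it to transmitter release and transcription. Their pores are formed by large alpha subunits, and smaller auxiliary subunits set their gating and their number at the surface. Ionotropic glutamate receptors carry fast excitation and GABA-A receptors carry fast inhibition between neurons. Embryonic stem cells form no synapses, and in non-neuronal cells many of these genes are held down by the repressor REST and its corepressors.

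Library totals were 17918770 to 21962079 estimated counts. Levels are mean ± SD over 3 libraries in CPM, that is counts relative to TMM-adjusted depth. The transcript of the lost gene was low in its own group. Mphosph8 averaged 0.306 ± 0.35 CPM in MP8, against 113 ± 3.23 CPM in WT. Tasor averaged 31.9 ± 1.19 CPM in Tas, against 126 ± 2.7 CPM in WT. Pphln1 averaged 21.3 ± 1.66 CPM in Pph, against 68.5 ± 2.91 CPM in WT. The 12 stem cell markers summed to 4770 to 4850 TPM in MP8, 5240 to 5310 in Tas, 4700 to 4740 in Pph and 5180 to 5520 in WT. Pou5f1 lay between 713 and 963 CPM as group means. Such a sum is weighted to the most abundant markers. In edgeR at an adjusted p under 0.05, 10 of the 12 fell in MP8, 7 in Tas and 11 in Pph, while 1, 4 and 0 rose.

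Channel and receptor genes changed in both directions after the loss of each subunit. Beside all tested genes, rises were more frequent in Pph and falls less frequent in MP8 and Pph. The shares of rises in MP8 and of both directions in Tas lay near those of all genes. Calls are from edgeR's quasi-likelihood test at a Benjamini-Hochberg adjusted p under 0.05. In MP8, 34 of the 108 tested members rose (31.5%) and 19 fell (17.6%), where 30.0% and 32.2% of all tested genes did. In Tas, 31 members rose (28.7%) and 28 fell (25.9%), against 26.2% and 25.5% of all genes. In Pph, 48 rose (44.4%) and 13 fell (12%), against 30.6% and 25.7% of all genes. The median log2 fold change of the tested members was 0.05 in MP8, 0.04 in Tas and 0.39 in Pph, beside -0.02, -0.01 and 0.04 for all tested genes. In bulk RNA such a change can mean more RNA per cell or more cells that carry it, and these cannot be told apart.

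Rises of 2-fold or more made up 21.3% of tested members in MP8, 18.5% in Tas and 19.4% in Pph. In MP8, 23 members rose and 8 fell by that much, where all genes gave 9.96% and 4.38%. In Tas 20 rose and 7 fell, against 6.59% and 3.62%, and in Pph 21 rose and 4 fell, against 8.91% and 2.24%. In all 3 null groups alike, 20 members rose (18.5%, against 10.6% of all genes), 13 of them by 2-fold or more in each group (12%, against 3.54%). In all 3 null groups 5 members fell, which is 4.63% of members against 8.66% of all genes. A further 17 members rose in a null group and fell in another (15.7%, against 16.5%), and 21 were called in none (19.4%, against 15.7%). No test of the list against other genes was made. The split of the calls depended on the scale: limma on log2(TPM + 0.1) gave 31 rises and 12 falls in MP8, 30 and 16 in Tas, and 44 and 6 in Pph. Among all genes that scale gave 5130 rises and 3426 falls in MP8, 3821 and 2732 in Tas, and 5864 and 1875 in Pph.

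**Figure D1:**
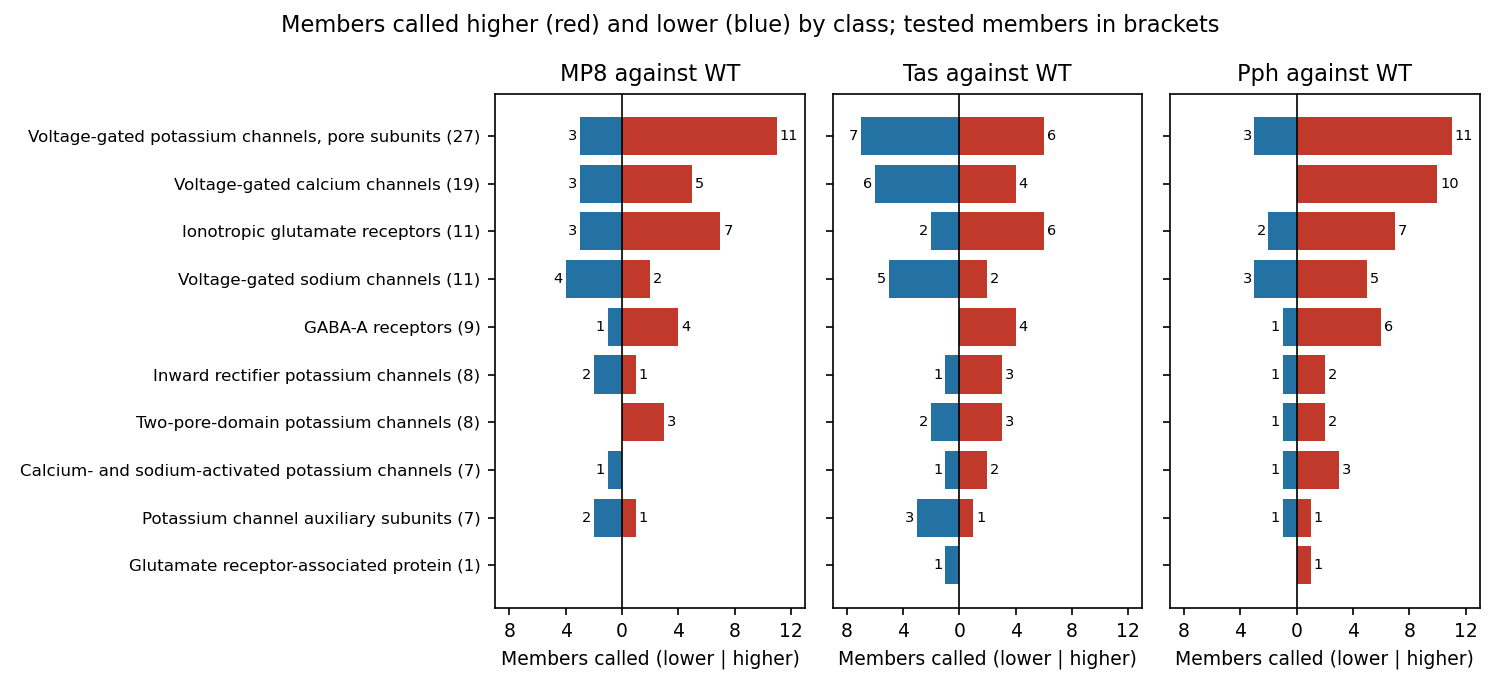
Number of members called higher (red, right) and lower (blue, left) in MP8, Tas and Pph against WT, by gene class, with tested members of each class in brackets. Calcium channel genes had 10 rises and no fall in Pph, against 4 rises and 6 falls in Tas.

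**Figure D2:**
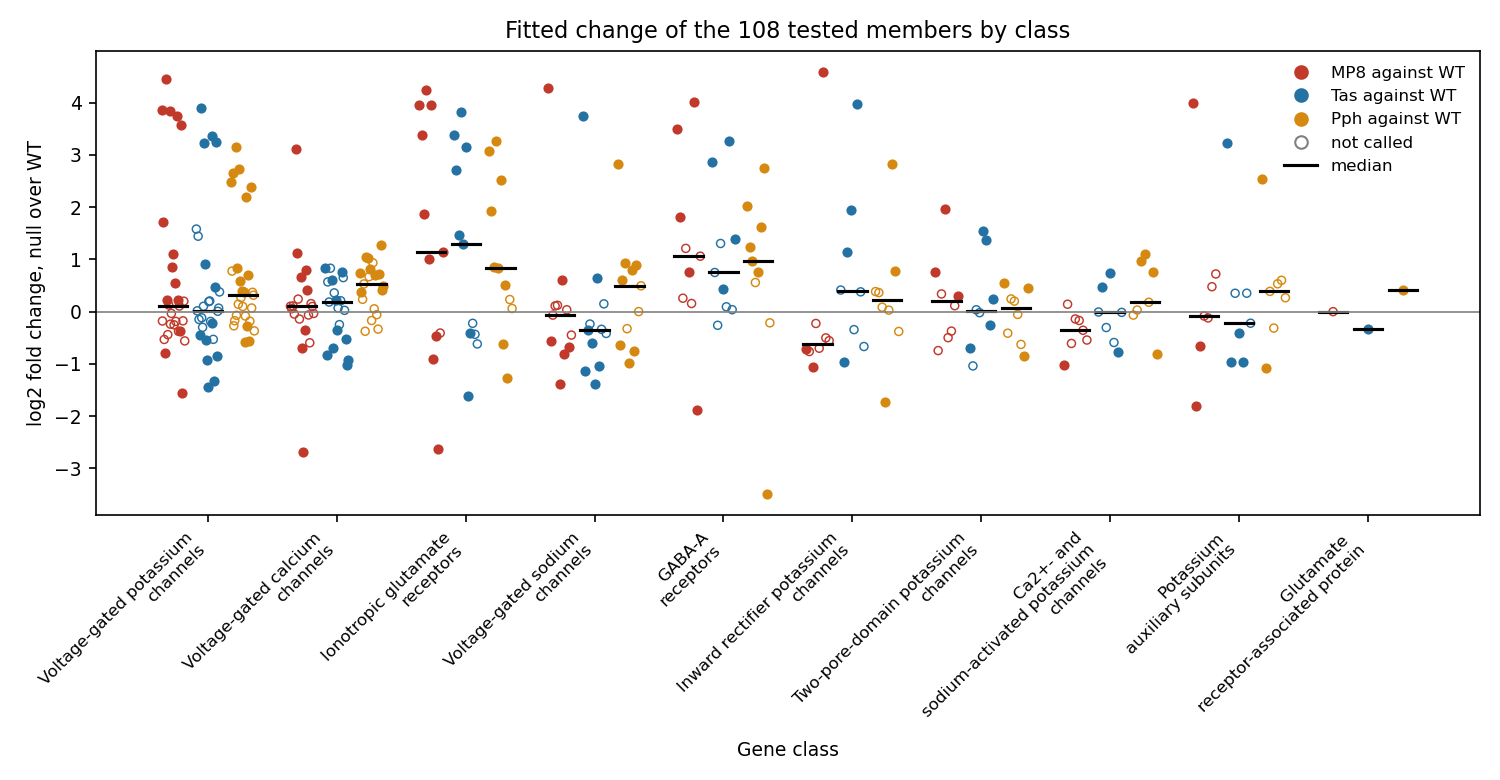
Fitted log2 fold change of each tested member against WT by class, with filled points called at an adjusted p under 0.05, open points not called, and a bar at the class median. A set of points above 2 stands apart from the rest of its class in potassium channels, glutamate receptors, GABA-A receptors and sodium channels.

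By class, ionotropic glutamate receptors and GABA-A receptors had the highest medians. The shares of all tested genes were 30.0% rises and 32.2% falls in MP8, 26.2% and 25.5% in Tas, and 30.6% and 25.7% in Pph. Class counts, here and below, were not tested against these shares, and many are small. Of 11 tested glutamate receptor genes, 7 rose and 3 fell in MP8, 6 rose and 2 fell in Tas, and 7 rose and 2 fell in Pph, with median log2 fold changes of 1.14, 1.3 and 0.84. Of 9 GABA-A receptor genes, 4 rose and 1 fell in MP8, 4 rose and 0 fell in Tas, and 6 rose and 1 fell in Pph, with medians of 1.06, 0.75 and 0.96. Potassium channel genes as a whole, 57 tested, had medians near those of all genes in MP8 (-0.17) and Tas (0.01) and of 0.27 in Pph. The 11 sodium channel genes had medians of -0.07, -0.35 and 0.49, and the 19 calcium channel genes 0.10, 0.18 and 0.53.

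Before the changes, the levels in WT place most members low. On the authors' TPM scale, which divides by transcript length and so allows genes to be compared, the highest steady members in WT were Cacng7 at 19.4 ± 1.04 TPM, the tandem-pore channel gene Kcnk1 at 15.9 ± 0.479 TPM, Cacna1a at 12.9 ± 1.24 TPM, Cacnb3 at 12.2 ± 0.709 TPM and Kcnk5 at 11.7 ± 0.664 TPM. Cacnb4 stood above them at a mean of 21.4 TPM, but its WT libraries ran between 1.69 and 31.9 TPM while its CPM were 1.01, 0.644 and 0.753, so its place in the order is not settled. Neighbours in this order, such as Cacna1a and Cacnb3, or Cacnb3 and Kcnk5, differed by less than the spread of their libraries. The best placed glutamate receptor was Grik5 at 5.31 ± 0.345 TPM, and the best placed sodium channel pore was Scn8a at 6.73 ± 0.747 TPM. In MP8 the order changed at the top: Kcnab1 stood at 116 ± 4.44 TPM in MP8 against 6.41 ± 0.487 TPM in WT, and Gria3 at 57.9 ± 5.61 TPM in MP8 against 4.71 ± 1.02 TPM in WT. Some of these places rest on the transcript length that counts and TPM imply, since a short one raises the TPM. As a share of the listed length it was 11.4% for Scn8a, 33.6% for Cacna1a, 42.2% for Gria3, 50.4% for Kcnab1 and 0.434% for Cacnb4, against 89.6% to 103% for Cacng7, Kcnk1, Cacnb3, Kcnk5 and Grik5. The 36 bases implied for Cacnb4 lie below its shortest annotated transcript (208 bases) and cannot be read as a transcript length.

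The 13 members that rose by 2-fold or more in every null group came from the glutamate receptor, GABA-A receptor, potassium channel and sodium channel classes, with none among calcium channels. They were 4 glutamate receptor genes (Gria2, Gria3, Grid1 and Grik1), 2 GABA-A receptor genes (Gabra3 and Gabrg3), 5 potassium channel pore genes (Kcnc2, Kcnd2, Kcnh5, Kcnj3 and Kcnq3), the potassium channel auxiliary gene Kcnab1 and the sodium channel gene Scn10a. Their log2 fold changes were 3.38 to 4.59 in MP8, 2.71 to 3.98 in Tas and 1.93 to 3.26 in Pph. They lay on 11 chromosomes.

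Among potassium channels, Kcnj3 encodes Kir3.1, a subunit of the inward rectifier that G proteins open in heart and brain. Kcnj3 had 10.6, 11.5 and 13.7 CPM in MP8, 6.93, 8.09 and 8.45 CPM in Tas, 4.02, 3.5 and 2.99 CPM in Pph, against 0.413, 0.496 and 0.565 CPM in WT. Each null group lay above WT, with no overlap, and the 3 null groups were separate from each other too (log2 fold change 4.59 ± 0.19, adjusted p = 5.59e-19 in MP8; 3.98 ± 0.20, adjusted p = 1.25e-16 in Tas; 2.82 ± 0.23, adjusted p = 1.34e-11 in Pph).

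Kcnc2 encodes Kv3.2, a rapidly closing channel of fast-spiking interneurons. Its libraries had 18.5, 22.4 and 20.2 CPM in MP8, 14.1, 12.7 and 14.3 CPM in Tas, 9.78, 7.15 and 7.87 CPM in Pph, against 1.33, 0.793 and 0.612 CPM in WT. The change was 4.46 ± 0.17, adjusted p = 3.43e-18 in MP8, 3.89 ± 0.18, adjusted p = 3.42e-16 in Tas and 3.16 ± 0.19, adjusted p = 2.06e-13 in Pph, without overlap. Kcnd2, for the dendritic A-type channel Kv4.2, had 19.8, 22.2 and 21.6 CPM in MP8, 13.7, 14.6 and 13.1 CPM in Tas, 9.73, 9.1 and 10.5 CPM in Pph, against 1.75, 0.892 and 1.74 CPM in WT. Every null library thus stood above every WT library, and the fitted log2 changes were 3.84 ± 0.14, 3.23 ± 0.14 and 2.73 ± 0.15.

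Another 3 genes for potassium channels moved in the same way. Kcnh5, for the ether-a-go-go channel Kv10.2, had 27.5, 33.5 and 26.7 CPM in MP8, 23, 19 and 24.7 CPM in Tas, 11.5, 8.9 and 9.49 CPM in Pph, against 1.75, 2.28 and 2.49 CPM in WT. Kcnq3, for a subunit of the muscarine-sensitive M current, had 49.3, 48.2 and 52.9 CPM in MP8, 42.2, 39 and 39.1 CPM in Tas, 24.3, 21.8 and 20.8 CPM in Pph, against 4.73, 4.46 and 3.53 CPM in WT. Kcnab1, for a cytoplasmic beta subunit that speeds inactivation of Shaker channels, had 60.3, 61.3 and 64.4 CPM in MP8, 38.4, 35.2 and 36.3 CPM in Tas, 23, 21.7 and 23.3 CPM in Pph, against 3.81, 3.82 and 4.05 CPM in WT. In these genes no null library came down to the WT range; the log2 fold changes in MP8 were 3.75 ± 0.15 for Kcnh5, 3.56 ± 0.09 for Kcnq3 and 3.99 ± 0.07 for Kcnab1, which had the smallest adjusted p of the members (6.16e-28).

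The promoters of 3 of these risers are printed beside those of 2 genes that fell in all 3 null groups (Kcnab2 and Grik3), because the windows differ widely in CG content, the base pair step that DNA methylation marks. The sequences are from RefSeq on GRCm38.p6, cover 250 bases before to 50 bases after the annotated start, read 5′ to 3′ on the gene's strand, and have CG in capitals. They are Kcnj3 at chr2:55435720-55436019 on the plus strand with 10 CG, Kcnc2 at chr10:112269767-112270066 on the plus strand with 3, Kcnd2 at chr6:21215096-21215395 on the plus strand with 26, Kcnab2 at chr4:152477500-152477799 on the minus strand with 25 and Grik3 at chr4:125490446-125490745 on the plus strand with 50. Kcnab2 has 3 listed promoters, with 25, 5 and 3 CG, and Kcnc2 has 4, with 3, 5, 5 and 6 CG, of which the first listed is shown.
Kcnj3: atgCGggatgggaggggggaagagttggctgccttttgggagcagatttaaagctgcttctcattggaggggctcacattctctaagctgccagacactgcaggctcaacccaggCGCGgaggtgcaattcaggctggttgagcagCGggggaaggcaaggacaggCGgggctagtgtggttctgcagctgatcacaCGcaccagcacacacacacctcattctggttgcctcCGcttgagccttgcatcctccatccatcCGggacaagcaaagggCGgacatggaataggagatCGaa
Kcnc2: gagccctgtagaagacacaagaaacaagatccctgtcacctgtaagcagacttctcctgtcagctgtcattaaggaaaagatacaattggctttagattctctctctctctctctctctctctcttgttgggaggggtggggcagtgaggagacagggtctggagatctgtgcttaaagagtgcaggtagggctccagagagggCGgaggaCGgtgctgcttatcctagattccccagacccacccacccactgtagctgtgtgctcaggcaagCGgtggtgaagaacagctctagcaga
Kcnd2: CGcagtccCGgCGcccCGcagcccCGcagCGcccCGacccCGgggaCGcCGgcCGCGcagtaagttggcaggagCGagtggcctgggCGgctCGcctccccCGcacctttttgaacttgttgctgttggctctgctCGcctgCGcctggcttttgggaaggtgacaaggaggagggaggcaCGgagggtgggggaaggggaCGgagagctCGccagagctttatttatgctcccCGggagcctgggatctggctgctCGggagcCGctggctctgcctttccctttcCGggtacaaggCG
Kcnab2: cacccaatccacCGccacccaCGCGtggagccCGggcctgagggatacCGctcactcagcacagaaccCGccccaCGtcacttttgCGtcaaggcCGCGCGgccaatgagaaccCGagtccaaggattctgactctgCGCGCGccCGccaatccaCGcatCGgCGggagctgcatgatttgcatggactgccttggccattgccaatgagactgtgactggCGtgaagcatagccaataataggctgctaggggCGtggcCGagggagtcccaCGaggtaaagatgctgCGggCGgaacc
Grik3: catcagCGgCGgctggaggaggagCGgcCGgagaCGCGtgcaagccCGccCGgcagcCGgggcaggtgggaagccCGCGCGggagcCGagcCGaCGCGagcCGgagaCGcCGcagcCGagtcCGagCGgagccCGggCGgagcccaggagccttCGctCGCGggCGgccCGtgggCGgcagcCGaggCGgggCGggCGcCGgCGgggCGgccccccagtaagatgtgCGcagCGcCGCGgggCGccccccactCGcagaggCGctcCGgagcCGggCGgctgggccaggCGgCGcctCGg
Over all listed promoters of this length (32851) the median was 7.0 CG. The 15 promoters listed for 9 of the 13 risers had a median of 6.0 CG with a range of 0 to 26, the 6 listed for 4 of the genes lower in all 3 groups had a median of 15 with a range of 3 to 50, and the 108 listed for 77 tested members had a median of 11. The ranges of the risers and of the genes that fell overlap.

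The risers among glutamate receptors covered AMPA, delta and kainate types. Gria3, an AMPA receptor subunit, had 45.8, 55 and 46.4 CPM in MP8, 29.5, 33.2 and 29 CPM in Tas, 20.9, 15.4 and 17.6 CPM in Pph, against 4.41, 5.4 and 4.28 CPM in WT. Grid1 encodes GluD1, a delta receptor that organises synapses, and had 9.76, 8.69 and 7.9 CPM in MP8, 7.25, 5.49 and 6.94 CPM in Tas, 4.67, 4.8 and 3.86 CPM in Pph, against 0.735, 0.297 and 0.329 CPM in WT. Grik1, for the kainate receptor GluK1, had 28.5, 26.5 and 23.3 CPM in MP8, 14.9, 15.8 and 13.9 CPM in Tas, 10.6, 9.7 and 8.58 CPM in Pph, against 2.07, 1.49 and 1.46 CPM in WT. In all 3 genes the null libraries lay above the WT libraries and fell into separate ranges, highest in MP8 and lowest in Pph (MP8 log2 fold changes 3.38 ± 0.12 for Gria3, 4.24 ± 0.22 for Grid1 and 3.96 ± 0.13 for Grik1).

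Gria2 encodes the AMPA subunit that blocks calcium entry, and it was the lowest of the 13. It had 0.805, 0.55 and 0.395 CPM in MP8, 0.325, 0.539 and 0.291 CPM in Tas, 0.489, 0.1 and 0.355 CPM in Pph, against 0, 0 and 0.0941 CPM in WT. These are few reads, with sums of 34 counts in MP8, 23 in Tas, 18 in Pph and 2 in WT. The count ratio was 18.4 in MP8 (95% exact interval 4.72 to 158), 12.2 in Tas (3.02 to 107) and 9.79 in Pph (2.34 to 87.0), which covers counting error only. The 2 WT counts were in replicate 3; without it the fitted log2 fold change in MP8 was 6.54 in place of 3.96.

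Among receptors for GABA, Gabra3 encodes the alpha3 subunit and Gabrg3 the gamma3 subunit. Gabra3 had 22.8, 21.3 and 21.9 CPM in MP8, 13.3, 12.9 and 16.4 CPM in Tas, 8.48, 6.8 and 8.63 CPM in Pph, against 1.38, 1.83 and 2.63 CPM in WT. Gabrg3 had 44, 39.2 and 39.9 CPM in MP8, 24.9, 23.8 and 24.2 CPM in Tas, 16, 17.2 and 17.9 CPM in Pph, against 1.98, 3.12 and 2.54 CPM in WT. Both kept the null groups apart from WT and from each other (Gabra3 3.50 ± 0.15 in MP8, 2.87 ± 0.15 in Tas and 2.03 ± 0.17 in Pph; Gabrg3 4.01 ± 0.10, 3.26 ± 0.11 and 2.75 ± 0.11). Scn10a, for the sodium channel Nav1.8 of pain-sensing neurons, had 5.74, 5.77 and 6.42 CPM in MP8, 4.6, 4.02 and 3.69 CPM in Tas, 2.45, 2.1 and 1.98 CPM in Pph, against 0.322, 0.149 and 0.423 CPM in WT. The changes were 4.29 ± 0.24, adjusted p = 1.58e-15 in MP8, 3.74 ± 0.26, adjusted p = 2e-13 in Tas and 2.83 ± 0.28, adjusted p = 9.52e-10 in Pph. The lowest null library of Scn10a stood well above its highest WT library in each case.

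**Figure D3:**
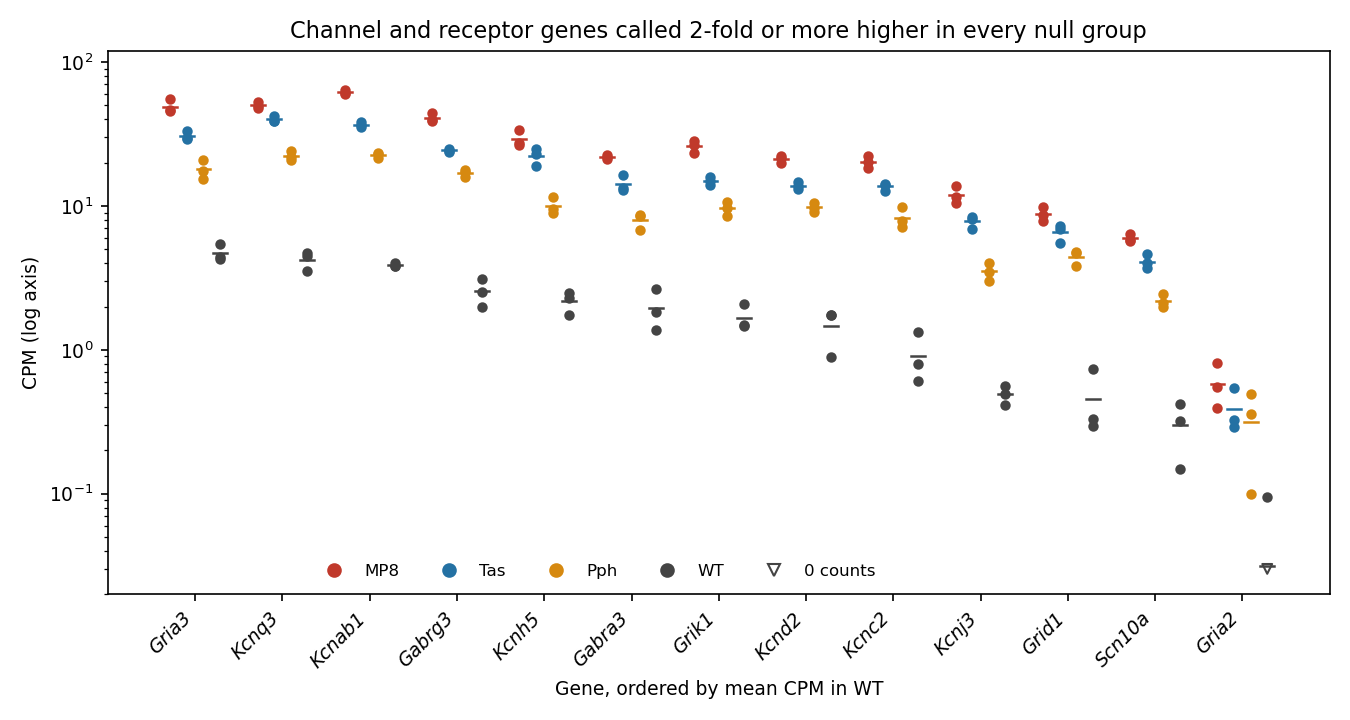
CPM on a log axis of the 13 members called 2-fold or more higher in each null group; points are libraries (n = 3 per group), bars are group means, and open triangles mark libraries with 0 counts. In 12 of the 13 genes the libraries separate in the order MP8, Tas, Pph and WT from high to low.

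The size of the rise was graded. The group means ran MP8 above Tas above Pph in 13 of the 13 genes, and the libraries of the 3 null groups separated in that order in 12, the exception being Gria2. Each of the 3 comparisons between null groups was called for 12 of the 13 genes, with log2 differences of 0.32 to 0.81 for MP8 against Tas, 0.89 to 1.77 for MP8 against Pph and 0.31 to 1.16 for Tas against Pph over all 13. Of these 36 calls, Grid1 in MP8 against Tas was lost without MP8 replicate 1 (adjusted p = 0.0851) or Tas replicate 2 (adjusted p = 0.103). In limma on TPM, 9 of the 36 were lost, in Grid1, Grik1, Kcnd2, Kcnh5 and Scn10a. Of all tested genes, 27.7% were called higher in MP8 than in Tas, 27.4% in MP8 than in Pph and 28.5% in Tas than in Pph. The order was counted for the members alone and not for the other genes that rose in all 3 null groups. Whether the grading is particular to channel and receptor genes was therefore not tested.

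The reads behind these rises had features that the rule did not use. Estimated counts that are not whole arise where reads are shared between transcripts or genes. Non-whole counts (tolerance 1e-09) in at least 9 of the 12 libraries were present in 12 of the 13 risers, against 9 of the other 95 tested members. The same held for 31.8% of all tested genes and for 82.9% of the 596 genes that rose 2-fold or more in all 3 null groups. The 13 genes also spanned 111 to 763 kb of genome with a median of 278 kb. The median was 54.5 kb for other tested members, 21.0 kb for all tested genes and 41.3 kb for those of the 596 genes with a known span.

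A transcript length can be read back roughly from the deposited counts and TPM of a gene. TPM divides by a measure of the length of the transcripts to which reads were assigned. With 1 scale per library, the reading tended to be low for short transcripts and high for long ones. Among members with 1 annotated transcript, Kcna3 gave 1787 of 1902 bases and Grik3 9602 of 8973. This implied length was below 50% of the listed length in 10 of the 13 risers, in 13 of the other 95 tested members and in 7.66% of all tested genes. Of the 596 genes that rose 2-fold or more in all 3 null groups, 27.7% lay below it. Since the reading is rough, the side of the line is uncertain for risers such as Kcnd2 (48.6%), Grik1 (44.4%) and Kcnj3 (41.5%). In Scn10a the median implied length over MP8 libraries was 412 bases, where 5877 are listed. In Grid1 it was 375 of 5720 bases, in Kcnc2 569 of 5046, in Kcnj3 631 of 1679 and in Kcnd2 2495 of 5152. In WT the median implied lengths were 426 bases for Scn10a, 904 for Grid1, 637 for Kcnc2, 858 for Kcnj3 and 2639 for Kcnd2. Those of Grid1 and Kcnj3 were shorter in MP8 than in WT, but their WT values rest on few counts. In WT Grid1 had 6.22 to 15.87 counts per library and implied lengths of 636 to 1858 bases. Kcnj3 had 8.95 to 11.76 counts and 858 to 1425 bases there. A difference in length between the groups was not tested. The TPM of these genes are thus high relative to their CPM. Not every implied length has a matching transcript in GENCODE M21, which may differ from the authors' annotation. There Kcnd2 has 1 transcript, of 5152 bases, and the shortest of Kcnj3 has 1679. Which transcripts the reads were assigned to is therefore not settled. Whether the reads came from the channels' coding exons was not tested.

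**Figure D4:**
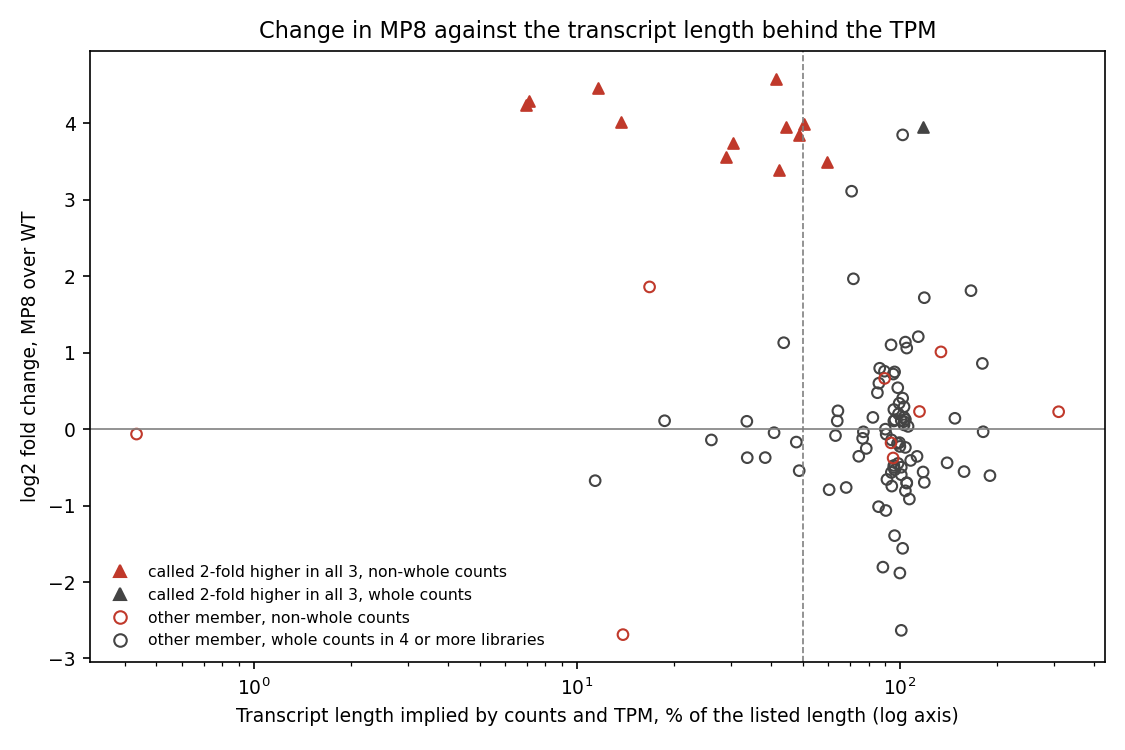
Log2 fold change in MP8 over WT against the transcript length implied by counts and TPM, as a percentage of the listed length on a log axis, for the tested members. Red marks members with non-whole counts in at least 9 of 12 libraries and triangles the 13 members called 2-fold or more higher in every null group; 10 of the triangles lie left of the dashed line at 50%.

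Whether a count is whole depends in part on its level, since 0 counts are whole, so the following split is a description and was not tested. The 68 members with whole counts in all 12 libraries had 14 rises and 13 falls in MP8, 12 and 21 in Tas, and 27 and 7 in Pph, with median log2 fold changes of -0.07, -0.02 and 0.34. The 87 members with non-whole counts in fewer than 9 libraries had 17 rises and 18 falls in MP8, 16 and 27 in Tas, and 32 and 12 in Pph, with medians of -0.08, -0.15 and 0.27. In Pph, rises thus outnumbered falls in these sets too. The 21 members with such counts in at least 9 libraries had 17 rises and 1 fall in MP8, 15 and 1 in Tas, and 16 and 1 in Pph, with medians of 3.49, 2.87 and 2.03.

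Another 7 members rose in all 3 null groups by less than 2-fold in at least 1 of them. Gria4, an AMPA receptor subunit, had 10.6, 9.13 and 9.48 CPM in MP8, 7.58, 6.86 and 7.67 CPM in Tas, 4.46, 5.35 and 4.72 CPM in Pph, against 2.8, 2.83 and 2.4 CPM in WT, again in the order MP8, Tas, Pph and WT. Cacna1g, for a low-voltage-activated T-type calcium channel, had log2 fold changes of 1.13 ± 0.10 (MP8), 0.61 ± 0.10 (Tas) and 1.04 ± 0.10 (Pph). Cacna2d1, the gabapentin-binding calcium channel subunit, Kcnk6, for a tandem-pore channel, and Scn3b, for a sodium channel beta subunit, moved by at most 0.81. The Tas calls of Cacna2d1 and Kcnk6 and the MP8 call of Scn3b were lost on leaving out libraries: Cacna2d1 without Tas replicates 1 or 2 or WT replicates 1 or 3 (adjusted p = 0.11 to 0.16) and in DESeq2 and with library totals alone; Kcnk6 without Tas replicate 1 or WT replicate 1 (adjusted p = 0.0622 to 0.0655) and in DESeq2; Scn3b without MP8 replicate 2 (adjusted p = 0.0653) and in limma on TPM. The Tas call of Scn3b was lost in limma on TPM (adjusted p = 0.114).

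The members that fell in all 3 null groups were Grik3, Kcnab2, Scn1a, Scn3a and Scn4b. Scn3a encodes Nav1.3, the sodium channel of embryonic neurons, and had 2.37, 2.91 and 3.01 CPM in MP8, 2.98, 3.09 and 2.28 CPM in Tas, 3.7, 3.1 and 4.26 CPM in Pph, against 6.98, 7.39 and 7.43 CPM in WT. Every null library lay below every WT library (log2 fold change -1.39 ± 0.16, adjusted p = 5.27e-09 in MP8; -1.39 ± 0.15, adjusted p = 8.33e-09 in Tas; -0.98 ± 0.15, adjusted p = 1.82e-06 in Pph). Grik3, for the kainate receptor GluK3, had 2.26, 2.91 and 3.55 CPM in MP8, 1.84, 1.42 and 2.09 CPM in Tas, 3.75, 3.55 and 3.4 CPM in Pph, against 4.96, 5.7 and 5.83 CPM in WT, with no overlap either and the deepest fall in Tas (-1.62 ± 0.18, adjusted p = 9.45e-09).

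Kcnab2, for the beta2 subunit that accompanies Shaker channels, had 0.604, 0.935 and 1.14 CPM in MP8, 1.46, 1.81 and 1.51 CPM in Tas, 1.52, 1.2 and 1.73 CPM in Pph, against 3.17, 2.97 and 3.25 CPM in WT. It fell by 1.80 on the log2 scale in MP8, where it was lowest. Scn1a, for the interneuron channel Nav1.1, had 2.06, 2.64 and 3.16 CPM in MP8, 1.89, 1.76 and 1.65 CPM in Tas, 2.45, 2.6 and 2.44 CPM in Pph, against 3.4, 4.66 and 3.62 CPM in WT. Its MP8 call was lost without MP8 replicate 1 or WT replicate 2 (adjusted p = 0.0748 to 0.0767) and in limma on TPM. Scn4b, for a sodium channel beta subunit, had 1.41, 1.76 and 2.27 CPM in MP8, 1.84, 1.62 and 1.21 CPM in Tas, 1.69, 1.85 and 2.13 CPM in Pph, against 2.89, 3.07 and 3.58 CPM in WT. These 5 genes had non-whole counts in at most 2 libraries, and their implied lengths were 88.6% to 107% of the listed ones. On the TPM scale with limma, none of the 5 was called lower in all 3 groups: Kcnab2 missed the threshold in Tas, Scn1a in MP8, and Grik3, Kcnab2, Scn1a, Scn3a and Scn4b in Pph, where that scale put the median of all genes at 0.17, against 0.04 in edgeR.

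With the shared risers counted, voltage-gated potassium channel pores had 11 rises and 3 falls in MP8, 6 and 7 in Tas, and 11 and 3 in Pph among 27 tested genes. Over all tested genes, 30.0% rose and 32.2% fell in MP8, 26.2% and 25.5% in Tas, and 30.6% and 25.7% in Pph. Kcna1, for Kv1.1 of axons, had 0.856, 1.21 and 0.938 CPM in MP8, 0.216, 0.196 and 0.194 CPM in Tas, 0.489, 0.15 and 0.507 CPM in Pph, against 0.0459, 0.0991 and 0.047 CPM in WT. It was called in MP8 (3.85 ± 0.56, adjusted p = 7.34e-07) and in Pph (2.47 ± 0.67, adjusted p = 0.00223) but in Tas gave 1.58 ± 0.75, adjusted p = 0.0789. Kcna6, for Kv1.6, had 0.352, 0.715 and 0.247 CPM in MP8, 0.761, 0.8 and 0.913 CPM in Pph, against 0.23, 0.149 and 0 CPM in WT. It rose in Pph (2.65 ± 0.58, adjusted p = 0.000258; 3.40 without WT replicate 1), while its MP8 call was lost without MP8 replicate 2 or WT replicate 3 (adjusted p = 0.118 to 0.173).

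The ether-a-go-go family split by genotype. Kcnh1, for Kv10.1, had 3.12, 1.7 and 2.32 CPM in MP8, 0.379, 0.49 and 0.34 CPM in Tas, 1.3, 1.15 and 1.12 CPM in Pph, against 0.689, 1.19 and 1.46 CPM in WT, so that MP8 lay above and Tas below all WT libraries (1.10 ± 0.28, adjusted p = 0.000971 in MP8; -1.45 ± 0.36, adjusted p = 0.00132 in Tas). Kcnh3, for Kv12.2, had 17, 15.3 and 20.2 CPM in MP8, 13, 13.9 and 14.7 CPM in Tas, 6.47, 8.9 and 8.68 CPM in Pph, against 11.6, 12.8 and 11.7 CPM in WT. It was higher than WT in MP8 (0.54 ± 0.10, adjusted p = 5.15e-05) and lower in Pph (-0.58 ± 0.12, adjusted p = 0.000104). Kcnh8, for Kv12.1, fell in Tas (-1.33 ± 0.17, adjusted p = 1.52e-07) and in Pph (-0.56 ± 0.16, adjusted p = 0.00386) and gave 0.11 ± 0.15, adjusted p = 0.552 in MP8. Kcnh6, the member of highest TPM in this family in WT (implied length 310.0% of the listed one), gave log2 fold changes of 0.23 ± 0.07 (MP8), -0.21 ± 0.07 (Tas) and -0.27 ± 0.07 (Pph). Its MP8 call was lost without MP8 replicate 2 (adjusted p = 0.0821). Its Tas call was lost without Tas replicates 1 or 3 or WT replicates 1, 2 or 3 (adjusted p = 0.0514 to 0.074) and in limma on TPM. Its Pph call was lost in limma on TPM (adjusted p = 0.462).

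Silent subunits, which form no channel alone and modify Kv2 channels, had 1 rise in MP8, 1 rise and 2 falls in Tas, and 2 rises in Pph among 5 tested genes. Kcng3 had 13.9, 16.4 and 14.7 CPM in MP8, 4, 4.46 and 4.61 CPM in Tas, 10.9, 9.7 and 12.1 CPM in Pph, against 8.64, 9.02 and 7.1 CPM in WT. It was higher in MP8 (0.86 ± 0.10, adjusted p = 2.51e-08) and Pph (0.40 ± 0.11, adjusted p = 0.00236) and lower in Tas (-0.92 ± 0.12, adjusted p = 3.31e-07). Kcnf1 rose in Tas to 3.42 ± 0.228 CPM, against 1.81 ± 0.2 CPM in WT (0.92 ± 0.20, adjusted p = 0.000311). Its Pph call was lost without Pph replicates 2 or 3 or WT replicate 3 (adjusted p = 0.0608 to 0.0991) and in DESeq2.

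**Figure D5:**
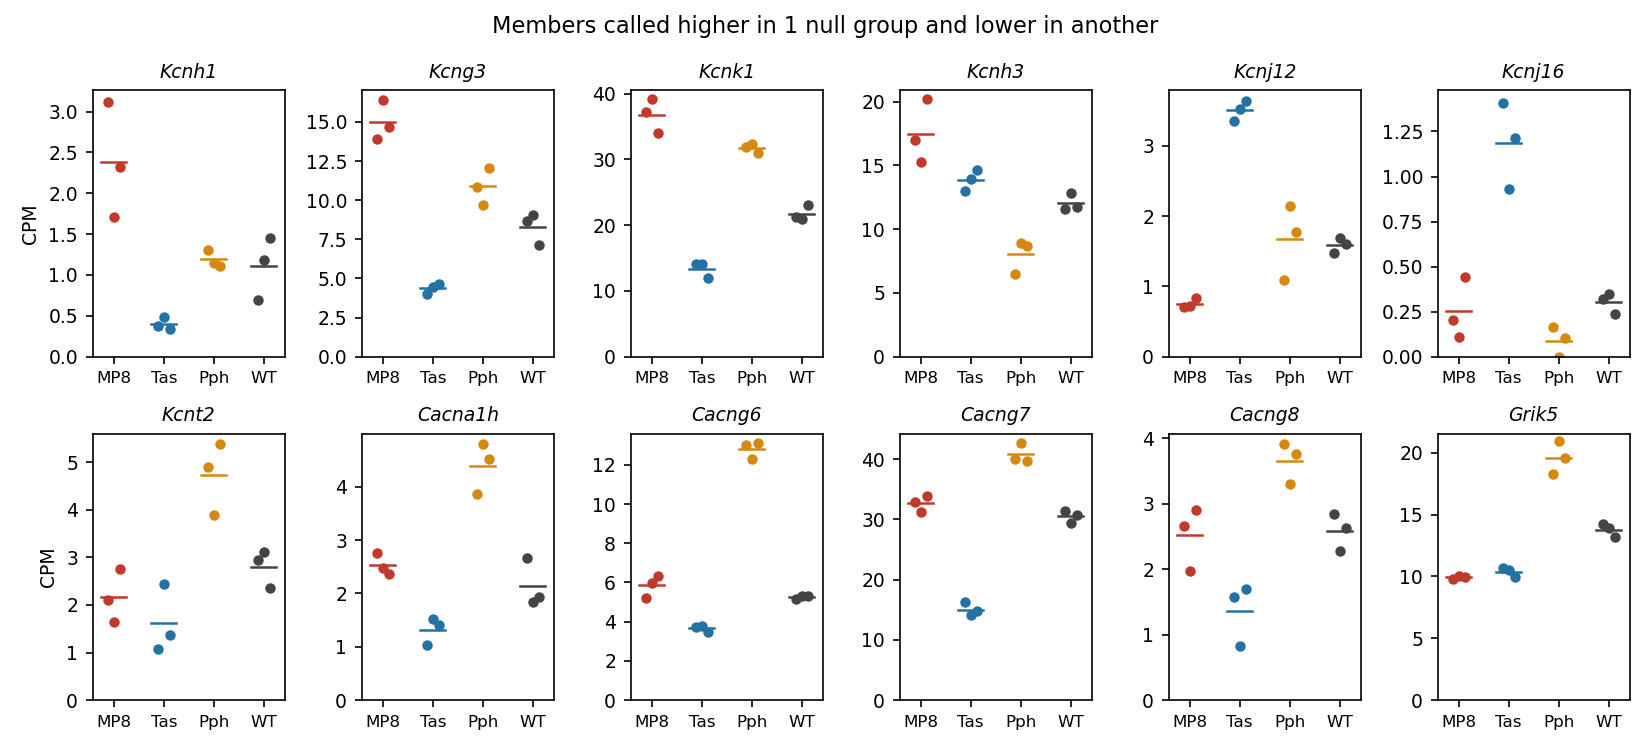
CPM of 12 of the 17 members called higher in a null group and lower in another; points are libraries (n = 3 per group) and bars are group means, from 0. Tas lies below WT and Pph above WT for the calcium channel subunit genes Cacng6, Cacng7 and Cacng8.

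Tandem-pore potassium channels carry the resting leak current. Kcnk1, for TWIK1, had 37.1, 39.1 and 34.1 CPM in MP8, 14.1, 14.1 and 11.9 CPM in Tas, 31.9, 32.4 and 31 CPM in Pph, against 21.2, 20.9 and 23.1 CPM in WT. It was higher in MP8 (0.76 ± 0.07, adjusted p = 5.87e-11) and Pph (0.55 ± 0.07, adjusted p = 7.23e-08) and lower in Tas (-0.70 ± 0.08, adjusted p = 6.31e-09), with 4 separate ranges. Kcnk5, for the alkaline-activated TASK2, had 28.2, 31.2 and 32 CPM in MP8, 23.6, 23.3 and 24.1 CPM in Tas, 17, 15.6 and 14.4 CPM in Pph, against 29.1, 25.7 and 29.5 CPM in WT. It fell most in Pph (-0.85 ± 0.07, adjusted p = 5.4e-11). Its smaller fall in Tas (-0.25 ± 0.07) was lost in limma on TPM (adjusted p = 0.109). Kcnk2, for the stretch-activated TREK1, rose in MP8 (1.96, 2.42 and 1.48 CPM in MP8, against 0.276, 1.04 and 0.188 CPM in WT; 1.97 ± 0.41, adjusted p = 0.000208; 3.03 without WT replicate 2). Kcnk3 and Kcnk4, for TASK1 and TRAAK, rose in Tas (1.53 ± 0.45 and 1.37 ± 0.34), and the call of Kcnk3 was lost in limma on TPM (adjusted p = 0.0566).

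Inward rectifiers other than Kcnj3 had at most 3.64 CPM in any library. Kcnj12, for Kir2.2 of muscle, had 0.705, 0.715 and 0.839 CPM in MP8, 3.36, 3.53 and 3.64 CPM in Tas, 1.09, 2.15 and 1.78 CPM in Pph, against 1.47, 1.69 and 1.6 CPM in WT. It was lower in MP8 (-1.06 ± 0.27, adjusted p = 0.00122) and higher in Tas (1.15 ± 0.22, adjusted p = 5.81e-05). Kcnj16, for Kir5.1, rose in Tas (1.41, 0.931 and 1.21 CPM in Tas, against 0.322, 0.347 and 0.235 CPM in WT; 1.95 ± 0.44, adjusted p = 0.000406). In Pph it had 0.163, 0 and 0.101 CPM, and that call was lost without Pph replicates 2 or 3 or WT replicates 1 or 2 (adjusted p = 0.0695 to 0.174) and in DESeq2 and in limma on TPM. Kcnj10, for the glial channel Kir4.1, fell in MP8 (-0.71 ± 0.24, adjusted p = 0.0137). That call was lost without MP8 replicate 1 or WT replicate 2 (adjusted p = 0.0639 to 0.0718) and in limma on TPM.

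Calcium- and sodium-activated channels follow calcium entry or sodium load. Kcnn1, for the small-conductance channel SK1, fell in MP8 (1.31, 1.37 and 0.889 CPM in MP8, against 2.76, 2.03 and 2.4 CPM in WT; -1.01 ± 0.23, adjusted p = 0.000417). Kcnn4, for the intermediate-conductance channel of blood cells, rose in Pph (3.21, 4.4 and 2.79 CPM in Pph, against 1.33, 1.83 and 1.69 CPM in WT; 1.10 ± 0.26, adjusted p = 0.000787), and its Tas call was lost without Tas replicates 2 or 3 or WT replicate 1 (adjusted p = 0.0744 to 0.0949) and in limma on TPM. Kcnt2, for the sodium-activated channel Slick, had 2.11, 1.65 and 2.76 CPM in MP8, 1.08, 2.45 and 1.36 CPM in Tas, 4.89, 3.9 and 5.38 CPM in Pph, against 2.94, 3.12 and 2.35 CPM in WT. It rose in Pph (0.75 ± 0.21, adjusted p = 0.0042). That call was lost in limma on TPM (adjusted p = 0.0661), and its fall in Tas was lost without Tas replicates 1 or 3 (adjusted p = 0.0652 to 0.0787). Kcnu1, the sperm channel and the member of highest TPM here in WT (implied length 48.8% of the listed one), averaged 1.17 ± 0.28 TPM in Pph and 1.61 ± 0.425 TPM in WT. Among auxiliary subunits, Kcnip2 and Kcnip3, calcium sensors of Kv4 channels, were called lower in Tas. The call of Kcnip2 was lost without Tas replicates 1, 2 or 3 or WT replicates 1, 2 or 3 (adjusted p = 0.058 to 0.137) and in DESeq2, without a filter, with the replicate block and in limma on TPM. That of Kcnip3 was lost without Tas replicate 2 or WT replicate 3 (adjusted p = 0.0606 to 0.0764) and in DESeq2. Kcnmb4, the neuronal beta subunit of BK channels, was not called in any comparison with WT.

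Of 19 tested calcium channel genes, 10 were called higher and 0 lower in Pph, where 30.6% and 25.7% of all genes were, and MP8 had 5 and 3 and Tas 4 and 6. Of the Pph calls, DESeq2 lost Cacnb2, Cacng4 and Cacng8, and limma on TPM lost Cacna1a, Cacna1b and Cacnb2. Of the pores, Cacna1a, for the P/Q-type channel of presynaptic terminals, had 24.8, 24.9 and 25.6 CPM in MP8, 39.6, 40.1 and 44.4 CPM in Tas, 36, 41.7 and 38.6 CPM in Pph, against 26.9, 21.2 and 21.8 CPM in WT. It rose in Tas (0.83 ± 0.07, adjusted p = 1.09e-09) and in Pph (0.73 ± 0.08, adjusted p = 9.86e-09), the Pph call being lost in limma on TPM (adjusted p = 0.193). Cacna1e, for the R-type channel, rose in MP8 (1.36, 1.92 and 0.987 CPM in MP8, against 0.184, 0.0991 and 0.188 CPM in WT; 3.11 ± 0.43, adjusted p = 3.32e-07). Cacna1b, for the N-type channel, had 9.91, 9.35 and 9.92 CPM in MP8, 5.9, 4.31 and 5.68 CPM in Tas, 11.6, 13.2 and 11.5 CPM in Pph, against 10.2, 9.72 and 8.23 CPM in WT. It fell in Tas (-0.82 ± 0.12, adjusted p = 8.95e-07) and rose in Pph (0.37 ± 0.11, adjusted p = 0.00384), but in limma on TPM neither call held (adjusted p = 0.0856 in Tas and 0.892 in Pph).

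Cacna1h, for the T-type channel Cav3.2, had 2.77, 2.47 and 2.37 CPM in MP8, 1.03, 1.52 and 1.41 CPM in Tas, 3.86, 4.8 and 4.52 CPM in Pph, against 2.66, 1.83 and 1.93 CPM in WT. It rose in Pph (1.03 ± 0.19, adjusted p = 2.51e-05). Its fall in Tas was lost without Tas replicate 1 or WT replicate 1 (adjusted p = 0.0625 to 0.0928) and in limma on TPM. Cacna2d3, for an auxiliary alpha2delta subunit, fell in MP8 (0.302, 0.055 and 0.0494 CPM in MP8, against 1.1, 0.892 and 0.753 CPM in WT; -2.69 ± 0.71, adjusted p = 0.00364; -3.98 without MP8 replicate 1). Of the beta subunits, Cacnb3 had 28.5, 29.3 and 28.4 CPM in MP8, 37.2, 37.6 and 34.9 CPM in Tas, 19.6, 23.3 and 19.4 CPM in Pph, against 22.9, 21.2 and 20.9 CPM in WT. It rose in MP8 (0.41 ± 0.07, adjusted p = 7.66e-06) and in Tas (0.76 ± 0.07, adjusted p = 6.52e-11). Cacnb2, the main beta subunit of heart muscle, was called higher in MP8 and Pph. Its MP8 call was lost without MP8 replicate 3 or WT replicate 3 (adjusted p = 0.138 to 0.243) and in DESeq2 and in limma on TPM, and its Pph call without Pph replicates 1, 2 or 3 or WT replicates 2 or 3 (adjusted p = 0.0598 to 0.229) and in DESeq2, with RLE factors, without a filter, with the replicate block, in limma on TPM and with only both groups fitted.

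Of the gamma subunit family, 4 of 4 tested genes were called higher in Pph and 3 of 4 lower in Tas. Of all tested genes, 30.6% were higher in Pph and 25.5% lower in Tas. The Pph calls of Cacng4 and Cacng8 were the unsteady ones: that of Cacng4 (0.72 ± 0.26, adjusted p = 0.019) was lost without Pph replicate 2 or WT replicate 1 (adjusted p = 0.0757 to 0.0785) and in DESeq2. Cacng7 and Cacng8 are known as transmembrane regulators of AMPA receptors rather than of calcium channels. Cacng7 had 32.9, 31.2 and 34 CPM in MP8, 16.2, 14.1 and 14.8 CPM in Tas, 40.01, 42.8 and 39.7 CPM in Pph, against 31.4, 29.4 and 30.8 CPM in WT. It was lower in Tas (-1.02 ± 0.07, adjusted p = 5.98e-14) and higher in Pph (0.42 ± 0.06, adjusted p = 4.93e-07). Cacng6, for another gamma subunit, had 5.23, 5.99 and 6.32 CPM in MP8, 3.73, 3.77 and 3.5 CPM in Tas, 13, 12.3 and 13.1 CPM in Pph, against 5.15, 5.3 and 5.32 CPM in WT. It rose in Pph (1.28 ± 0.11, adjusted p = 1.6e-11). Its fall in Tas (-0.52 ± 0.13, adjusted p = 0.00101) was lost in limma on TPM (adjusted p = 0.0689). Cacng8 fell in Tas (1.57, 0.833 and 1.7 CPM in Tas, against 2.85, 2.28 and 2.63 CPM in WT; -0.92 ± 0.23, adjusted p = 0.00124), and its rise in Pph was lost without Pph replicates 1 or 3 or WT replicates 2 or 3 (adjusted p = 0.0674 to 0.123) and in DESeq2. For Cacng6, Cacng7 and Cacng8 the 3 Tas libraries lay below all WT libraries and the Pph libraries above them. These 3 genes lie near each other on chromosome 7, with listed promoters from 3424412 (Cacng6), 3332575 (Cacng7) and 3393792 (Cacng8). Their shared pattern may therefore not be 3 separate observations, and whether they changed as 1 locus was not tested.

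Of the 11 tested sodium channel genes, 2 rose and 4 fell in MP8, 2 and 5 in Tas, and 5 and 3 in Pph. All tested genes gave 30.0% and 32.2% in MP8, 26.2% and 25.5% in Tas, and 30.6% and 25.7% in Pph. With 11 genes the counts were not read as a class result. Scn8a, for Nav1.6 of the axon initial segment and the pore of highest TPM in WT, had 4.58, 4.23 and 3.8 CPM in MP8, 8.17, 7.55 and 6.65 CPM in Tas, 6.74, 6.5 and 6.9 CPM in Pph, against 6.62, 6.89 and 6.63 CPM in WT. It fell in MP8 (-0.67 ± 0.12, adjusted p = 2.78e-05). That call was lost in limma on TPM (adjusted p = 0.148).

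The NMDA receptor genes and the remaining kainate genes had falls as well as rises. Grin1, the subunit that every NMDA receptor needs, had 0.604, 0.33 and 0.592 CPM in MP8, 2.49, 2.99 and 2.77 CPM in Tas, 1.58, 1.45 and 0.964 CPM in Pph, against 3.03, 3.37 and 3.25 CPM in WT. It fell in MP8 (-2.63 ± 0.26, adjusted p = 5.35e-10) and in Pph (-1.27 ± 0.22, adjusted p = 1.51e-05) and gave -0.22 ± 0.20, adjusted p = 0.37 in Tas. Grin3a, a glycine-binding modulatory subunit, was called higher in MP8, a call lost without MP8 replicates 2 or 3 or WT replicates 2 or 3 (adjusted p = 0.0666 to 0.116) and in DESeq2. Grik5, for GluK5, which needs another kainate subunit to form a channel, had 9.81, 10.01 and 9.92 CPM in MP8, 10.7, 10.5 and 9.95 CPM in Tas, 18.3, 21 and 19.5 CPM in Pph, against 14.2, 13.9 and 13.2 CPM in WT. It was lower in MP8 (-0.47 ± 0.09, adjusted p = 1.62e-05) and Tas (-0.41 ± 0.08, adjusted p = 0.000134) and higher in Pph (0.51 ± 0.08, adjusted p = 1.75e-06). Grina matches the naming rule but encodes a receptor-associated membrane protein and no receptor subunit; it fell in Tas (-0.33 ± 0.09, adjusted p = 0.00375) and rose in Pph (0.41 ± 0.09, adjusted p = 0.000179).

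The remaining GABA-A receptor genes were low. Gabra4, for the alpha4 subunit of extrasynaptic receptors, rose in MP8 (1.96, 2.2 and 3.55 CPM in MP8, against 0.459, 1.09 and 0.659 CPM in WT; 1.81 ± 0.31, adjusted p = 1.16e-05) and in Pph (1.23 ± 0.33, adjusted p = 0.0021). Gabre, for the epsilon subunit, rose in Pph (1.25, 1.65 and 1.83 CPM in Pph, against 0.368, 0.545 and 0.612 CPM in WT; 1.63 ± 0.34, adjusted p = 0.000177). Gabrp, for the pi subunit known from reproductive epithelia, fell in MP8 (-1.88 ± 0.48, adjusted p = 0.00114) and in Pph, where it had 0.163, 0.05 and 0 CPM, against 0.827, 0.892 and 0.8 CPM in WT (-3.49 ± 0.60, adjusted p = 1.23e-05; -4.75 without Pph replicate 1). Gabrr1, for a retinal rho subunit, was called higher in Tas, a call lost without Tas replicate 1 or WT replicate 3 (adjusted p = 0.098 to 0.161). Gabrr1 and Gabrp were under 1.5 CPM in every library.

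Direct comparisons between the null groups also called many members. MP8 against Tas had 40 members higher and 23 lower (all genes 27.7% and 28.4%), MP8 against Pph 28 higher and 38 lower (27.4% and 31.4%), and Tas against Pph 29 higher and 36 lower (28.5% and 29.3%). Among the largest differences of MP8 against Tas were Kcnh1 (2.55 ± 0.33), Cacna1e (2.28 ± 0.40), Kcna1 (2.27 ± 0.46) and Kcnk2 (1.99 ± 0.42) upwards and Grin1 (-2.41 ± 0.27), Kcnj12 (-2.21 ± 0.25), Kcnj16 (-2.18 ± 0.46) and Kcnk4 (-1.75 ± 0.36) downwards. Among those of MP8 against Pph were Cacna1e (3.49 ± 0.47), Kcnj3 (1.77 ± 0.14), Kcnk2 (1.77 ± 0.41) and Kcnh5 (1.55 ± 0.12) upwards and Cacna2d3 (-3.62 ± 0.66), Gabre (-1.47 ± 0.34) and Grin1 (-1.36 ± 0.30) downwards. For Tas against Pph they were Kcnj16 (3.68 ± 0.56), Kcnk4 (2.0 ± 0.37), Kcnh5 (1.16 ± 0.12) and Kcnj3 (1.16 ± 0.14) upwards and Cacng6 (-1.80 ± 0.11), Cacna1h (-1.73 ± 0.20), Kcnh1 (-1.54 ± 0.36) and Gabre (-1.53 ± 0.34) downwards. All of these passed the adjusted threshold in edgeR. In limma on TPM, Grin1 in MP8 against Pph (-0.47, adjusted p = 0.376) and Kcnk2 in MP8 against Tas (1.98, adjusted p = 0.138) and against Pph (1.44, adjusted p = 0.265) were not called. Single libraries moved a few of them by over 1.5 times as a fold: Cacna2d3 in MP8 against Pph gave -4.92 without MP8 replicate 1, Kcnj16 in MP8 against Tas gave -2.86 without MP8 replicate 3, and Kcnj16 in Tas against Pph gave 4.39 without Pph replicate 1.

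Of the 62 members below the filter on low counts, 46 had fewer than 10 counts in every library, including 4 at 0 throughout. The other 16 reached 10 counts in some library, among them Cacna1i, Cacng5, Gabra2, Gabrq, Grik4, Grin2a, Grin2b, Kcnc1, Kcng2, Kcnj5, Kcnk7, Kcnma1, Kcnq1 and Scn4a. They include main adult subunits of NMDA receptors (Grin2a and Grin2b). In the authors' deposited table, 32 members were higher and 14 lower in MP8, 24 and 17 in Tas, and 35 and 11 in Pph at an adjusted p under 0.05; of the members called here, 43 of 53, 40 of 59 and 45 of 61 were also called there in the same direction and 0 in the opposite one.

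Related channel and receptor families outside the naming rule held single genes with the same graded rise. The counts of these families, of channel partners and of REST corepressors were not tested against other genes. Beside them, all tested genes gave 30.0% rises and 32.2% falls in MP8, 26.2% and 25.5% in Tas, and 30.6% and 25.7% in Pph. Of 7 tested HCN, CNG and leak channel genes, 2 rose and 2 fell in MP8, 2 and 3 in Tas, and 1 and 2 in Pph. Nalcn, the sodium leak channel, averaged 70.1 CPM in MP8, 42.7 CPM in Tas and 28.3 CPM in Pph, against 4.53 CPM in WT (log2 fold changes 3.95, 3.23 and 2.64), while Cnga3 fell in MP8 and Tas (-0.71 and -1.88) and Hcn4, a pacemaker channel, rose in MP8 (0.78) and fell in Tas (-1.07). Of 6 metabotropic glutamate and GABA-B receptor genes, 3 rose and 1 fell in MP8, 3 rose in Tas and 3 in Pph. Grm5, for the receptor mGluR5, averaged 17.6 CPM in MP8, 10.7 CPM in Tas and 6.69 CPM in Pph, against 1.21 CPM in WT. Grm8 rose by 3.51, 3.32 and 3.32 on the log2 scale, and Grm6 in MP8 (2.56).

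The other families were mixed. Of 12 chloride channel genes, 5 rose and 1 fell in MP8, 4 and 1 in Tas, and 6 and 1 in Pph, with Clcn5 at 1.36 in Pph, Cftr at 1.68 in MP8 and Best2 at 1.24 in Tas. Of 14 TRP channel genes, 2 rose and 3 fell in MP8, 1 and 4 in Tas, and 8 and 2 in Pph, with Trpc5 at -2.30 in MP8, Trpm6 at -1.39 in Tas and Trpv3 at 1.24 in Pph. Of 10 glycine, nicotinic and serotonin receptor genes, 2 rose and 1 fell in MP8, 1 and 2 in Tas, and 4 and 2 in Pph, led by Chrnb1 (1.54) and Glrb (1.29) in Pph; Chrna5 fell in MP8 (-0.99). Of the 2 tested epithelial and acid-sensing channel genes, Asic1 fell in MP8 (-0.71) and rose in Tas (0.58).

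Proteins that scaffold or modify channels changed at single genes as well. Of 28 tested partners, 9 rose and 11 fell in MP8, 8 and 7 in Tas, and 13 and 2 in Pph. Dlg2, for the postsynaptic scaffold PSD-93, averaged 52.4 CPM in MP8, 35.1 CPM in Tas and 18.6 CPM in Pph, against 2.86 CPM in WT (log2 fold changes 4.19, 3.61 and 2.69). Fgf13, which binds sodium channels from inside the cell, rose by 2.53, 2.30 and 1.59, and Lgi3 rose in Pph (2.36). Dlg2, Fgf13, Nalcn and Grm5 had non-whole counts in 12 of 12 libraries. REST and its corepressors had 2 rises and 11 falls in MP8 among 15 genes, 2 and 5 in Tas, and 2 and 7 in Pph. Rest itself averaged 369 CPM in MP8, 461 CPM in Tas and 397 CPM in Pph, against 445 CPM in WT (-0.27, 0.05 and -0.16). Rcor2 (-0.66) in Pph, Ctdspl (0.99) in Pph and Hdac2 (-0.62) in MP8 had the largest called changes.

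Markers of other cell types moved with genotype, and their part in the channel results was not tested. For all marker counts, the shares of all tested genes were 30.0% rises and 32.2% falls in MP8, 26.2% and 25.5% in Tas, and 30.6% and 25.7% in Pph. Of 15 neuronal markers, 7 rose and 4 fell in MP8, 7 and 3 in Tas, and 5 and 5 in Pph; none was at 0 in every library, and their summed level was 537 to 546 TPM in MP8, 660 to 675 in Tas, 566 to 586 in Pph and 496 to 527 in WT. Elavl4, an RNA-binding protein of neurons, rose most (3.08 in MP8, 2.70 in Tas and 1.67 in Pph), Dcx rose in MP8 (2.14), and Rbfox3, a marker of mature neurons, fell in all 3 groups (-1.59, -1.08 and -0.66). Of 9 tested neural progenitor markers, 4 rose and 2 fell in MP8, 3 and 2 in Tas, and 2 and 4 in Pph, with sums of 56.0 to 56.3 TPM in MP8, 46.4 to 51.7 in Tas, 32.9 to 34.7 in Pph and 47.1 to 50.2 in WT. Otx2 fell most in Pph (-3.40), Neurog1 in MP8 (-2.45), and Fabp7 rose in MP8 (2.13).

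In Pph, where the most members rose, markers of non-neural lineages were also high. Of 11 tested trophectoderm markers, 8 rose and 1 fell in Pph, with sums of 898 to 919 TPM in Pph against 125 to 132 in WT, while MP8 had 122 to 127 and Tas 86.4 to 92.8 TPM. Krt8 (3.21), Hand1 (3.47) and Cdx2 (3.16) led them. Of 11 fibroblast markers 10 rose in Pph, with sums of 39.2 to 44.0 TPM in Pph and 17.2 to 19.7 in WT; Col3a1, Col1a2 and Col1a1 changed by 3.54, 2.27 and 2.23. In MP8 6 rose and 1 fell (34.8 to 38.6 TPM), and in Tas 2 rose and 4 fell (21.0 to 23.8 TPM).

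Of 9 primitive endoderm markers, 7 rose in Pph (317 to 320 TPM in Pph and 171 to 185 in WT), 7 rose and 2 fell in MP8 (191 to 203) and 4 rose in Tas (185 to 196), led by Col4a2 (2.74) and Col4a1 (2.03) in Pph and Pdgfra (1.45) in MP8. Of 9 heart and muscle markers, 6 rose in Pph (24.8 to 26.7 TPM), 2 rose and 2 fell in MP8 (14.6 to 16.5), and 3 rose in Tas (20.5 to 24.7), against 16.3 to 20.1 TPM in WT; Actc1 (2.88) and Myl7 (-1.94) in MP8 and Myh7 (2.35) in Pph had the largest changes. No marker of these lists was at 0 in every library. Of the 12 stem cell markers, 10 fell and 1 rose in MP8, 7 and 4 in Tas, and 11 and 0 in Pph, with Klf4 (-2.64, -2.92 and -2.28), Tfcp2l1 (-2.55 in MP8) and Esrrb (-1.28 in MP8) lowest relative to WT.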

How the data were processed

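Libraries were grouped by the genotype labels. Per the submitters' processing notes, FastQC, HISAT2 2.1.0, RSEM, DESeq 1.26.0 and build GRCm39 were used, with no role or order given. Per the file headers, the authors deposited an expected count and a TPM for each gene and library, and for each null group a fold change (a ratio), its log2 and a p-value.

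The deposited expected counts were rounded and fitted in edgeR 4.0.16 (R 4.3.3) over the 12 libraries, with TMM scaling, filterByExpr by group and a robust quasi-likelihood fit. Each of the 6 comparisons was adjusted over 16840 genes by Benjamini-Hochberg at 0.05. Errors are the SD of 3 libraries or the SE of a fitted log2 fold change. Levels of different genes are compared on the deposited TPM. Implied lengths are counts over TPM, scaled in each library on single-transcript genes with over 200 whole counts, and read in libraries with at least 5 counts. They are approximate and tend to be low for short transcripts. Transcripts and gene spans came from GENCODE M21 on GRCm38. Alternatives used DESeq2 1.42.0, and limma 3.58.1 on log2(TPM + 0.1). On simulated counts over 15966 tested genes, genes given a 1.5-fold change were recovered in 78.8% (MP8), 67.7% (Tas) and 70.3% (Pph) of cases, those given 2-fold in 85.7%, 81.5% and 86.2%, and those given 4-fold in 95.2%, 95.2% and 100%, with 10 or 11 false calls. In the simulation only 63 to 66 tested genes were changed at each fold in each null group. Far more were called in the data, for example 5058 rises and 5419 falls in MP8. The simulated recovery and false calls thus need not hold for the calls reported here. Intervals and floors cover counting error only. Libraries of a group differed by more than counting noise (chi-square per degree of freedom 1.92 to 6.35), so none was taken for a second deposit of another; this does not show that they came from separate cultures.

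The genes named were the lost genes; per comparison with WT, up to 10 called members with the largest rise and 6 with the largest fall, without overlapping libraries and with a mean of at least 1 CPM; per subclass, the highest TPM in WT and up to 2 largest called changes; members called 2-fold or more in 1 direction in all 3 null groups; members called in opposite directions; up to 4 per direction between null groups; up to 3 called genes per further list; and members under the filter with at least 10 counts in a library. Cacng4, Gria4, Kcna6, Kcnj10, Kcnk6, Pou5f1 and Rest lie outside that rule and were chosen after their values were seen. Values of some members that the rule names are not reported here, though counts include them. The members and lists were chosen with earlier results of these data known.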

Additional observations from a re-analysis of the deposited data

Results flagged for a closer look

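Of the 108 tested members, 17 (15.7%, against 16.5% of all tested genes) were called higher in a null group and lower in another. In each the direct comparison of those groups was called too in edgeR. The choice of genes with opposite calls in the same fit made this nearly certain, so the direct calls add no support and give only sizes. Values were lower in Tas than in Pph for Cacna1b (log2 difference -1.19, adjusted p = 3.8e-10), Cacna1h (-1.73, adjusted p = 1.79e-08), Cacng6 (-1.80, adjusted p = 2.34e-14), Cacng7 (-1.44, adjusted p = 8.06e-18), Cacng8 (-1.42, adjusted p = 2.77e-06), Grina (-0.74, adjusted p = 3.45e-08) and Kcnt2 (-1.52, adjusted p = 3.87e-06). Kcnj16 was higher in Tas than in Pph (3.68, adjusted p = 1.8e-06).

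MP8 and Tas differed for Kcnh1 (2.55, adjusted p = 1.09e-07) and Kcnj12 (-2.21, adjusted p = 7.9e-09). Kcnh3 was higher in MP8 than in Pph (1.12, adjusted p = 1.56e-09). In 4 genes 2 pairs of groups differed. Kcng3 gave 1.78 for MP8 against Tas (adjusted p = 5.96e-14) and -1.32 for Tas against Pph (adjusted p = 1.14e-10). Kcnk1 gave 1.46 (adjusted p = 1.2e-16) and -1.25 (adjusted p = 5.84e-15) for the same pairs. Grik5 gave -0.98 for MP8 against Pph (adjusted p = 1.32e-11) and -0.92 for Tas against Pph (adjusted p = 4.29e-11). Kcnh6 gave 0.44 for MP8 against Tas (adjusted p = 2.41e-05) and 0.49 for MP8 against Pph (adjusted p = 6.12e-06). All null groups share the WT libraries. In DESeq2, 13 of the 17 were still called in opposite directions, Cacng8 and Kcnj16 not among them. The cause of these differences was not tested.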

How the results depend on the processing

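For 367 called member values, 5094 refitted values were obtained, of which 4714 kept direction and call, 378 lost the call and 2 reversed. The 13 members 2-fold or more higher in all 3 null groups were the same genes under DESeq2, RLE factors, library totals, no filter and the replicate block. Of them, 12 remained, without Gria2, with a filter of 1 CPM, with only the compared groups fitted and in limma on log2(TPM + 0.1). The TPM scale changed most: it lost 89 calls (DESeq2 lost 43), put the median of all genes at 0.08 (MP8), 0.03 (Tas) and 0.17 (Pph), and left 12 members lower in MP8, 16 in Tas and 6 in Pph. On it 0 members were lower in all 3 groups and 11 went in opposite directions, 9 of them among the 17. Both reversals were on it and were not called there: Cacna1b gave 0.70 in MP8 against Pph (adjusted p = 0.0713) and Scn2a gave 1.51 in Tas against Pph (adjusted p = 0.393). The cause was not tested. Without any 1 library, called members numbered 49 to 55 in MP8, 47 to 56 in Tas and 55 to 59 in Pph, and 43 of 53, 42 of 59 and 49 of 61 calls held in every such fit. Shared replicate numbers did not pair the libraries (correlations of -0.20 to 0.07); a replicate block gave 52 called members in MP8, 59 in Tas and 59 in Pph, and 16 in opposite directions.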
